A study of Mus musculus with 24 samples.

Results

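The cytochrome P450 (CYP), UDP-glucuronosyltransferase (UGT) and cytosolic sulfotransferase (SULT) genes of the mouse colon were taken by their symbols. Of 140 genes whose symbol begins with Cyp, Ugt or Sult and a digit, leaving out Cyp51, those with a mean of at least 1 CPM (the gene's reads scaled to 1000000 reads a library) over 24 libraries were kept. This left 51 genes of the 23329 measured: 36 of 101 CYP genes, 9 of 21 UGT genes and 6 of 18 SULT genes. Of the 89 genes below the limit, 25 had no read in any library. The members just inside it were Cyp2c44 at 1.10 CPM, Ugt2b36 at 1.12 CPM and Ugt1a2 at 1.13 CPM, and the genes just outside it were Cyp2d40 at 0.814 CPM, Cyp2j13 at 0.748 CPM and Cyp2d11 at 0.742 CPM. In 37 members the mean reached 1 CPM in all 6 groups of libraries. Cyp4f39 reached it in the transgenic colon wall groups alone, Ugt1a2, Ugt2b36 and Ugt2b5 in the epithelial groups alone, and Cyp2c44, Cyp2f2, Cyp7b1 and Sult4a1 in the wall groups alone. Cyp2c69 and Cyp2w1 reached it in all groups but those given DSS. The choice of these genes is tied to the groups in which they were high. The CPM given for single libraries below are scaled further by TMM factors, which ran from 0.861 to 1.142.

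The libraries came from C57Bl/6 mice that all carried VilCre, a Cre recombinase driven by the villin promoter, which is active in the gut epithelium. Control mice had the genotype VilCre, and transgenic mice VilCre-CMVcaNrf2, in which Cre recombination turns on a constitutively active form of the transcription factor Nrf2. Total RNA was profiled from untreated colon epithelial cells of both genotypes, and from pieces of the full-thickness colon wall, some after dextran sulfate sodium (DSS), which is a polymer that injures the colon lining when given to mice. Wall of both genotypes was sampled under each treatment. Each of these 6 groups had 4 libraries. The wall piece was taken near the rectum, while the stretch of colon behind the epithelial cells is not stated in the sources used. Neither are the DSS dose and time, the age and sex of the mice, or whether replicates were separate mice. The p-values below therefore cover no more than library-to-library spread, which may be technical.

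CYP enzymes are haem proteins that insert oxygen into fatty acids, sterols, retinoids, drugs and toxins, drawing electrons from a reductase or, in mitochondria, from ferredoxin. UGT enzymes attach glucuronic acid, and SULT enzymes attach sulfate from the donor PAPS, to the hydroxyl groups that such oxidation leaves or that the compounds carry from the start. In the colon these families act on bile acids, bilirubin, dietary and microbial compounds and signalling lipids, and several of their genes are textbook targets of the sensors Ahr, Nr1i2 (PXR), Nr1i3 (CAR) and Nrf2.

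Library totals ran from 6683803 to 15399862 reads in epithelial cells and from 20232309 to 154336039 in wall. Nfe2l2, the gene for Nrf2, measured 135.8 to 181 CPM in control and 222.4 to 338.6 CPM in transgenic epithelial cells, without overlap, 105.1 to 149.5 against 157 to 240.1 CPM in untreated wall and 107.3 to 164.9 against 167.9 to 297.8 CPM in DSS-treated wall. The summed level of 6 pan-epithelial markers was 7552 to 17340 CPM in the epithelial libraries and 10700 to 19060 CPM in untreated wall. The 6 smooth muscle markers summed to 12.1 to 81 CPM in epithelial cells, against 11350 to 16190 CPM in untreated wall. Epithelial control replicate 3 and epithelial transgenic replicate 1 stood apart. They had 19710 and 22160 CPM of 8 absorptive colonocyte markers, where the other 6 epithelial libraries had 1321 to 4730 CPM and untreated wall had 5030 to 10870 CPM. Results from epithelial cells are therefore given with and without these 2 libraries where they differ.

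Between genes, levels were compared as TPM, a transcript abundance that allows for transcript length. In untreated control wall, Sult1a1 led with 468.6 ± 42.8 TPM (SD, n = 4), or 16.8% of the summed TPM of all members. Sult1a1 sulfonates phenols. Cyp2c55, a fatty acid oxidising P450 of the colon, followed with 341.8 ± 59.5 TPM, then Cyp2d34 with 273.1 ± 31.5 TPM and Ugt2b34 with 217.6 ± 42 TPM. The ranges of mean ± SD overlapped between Cyp2c55 and Cyp2d34 and between Cyp2d34 and Ugt2b34, but not between Sult1a1 and Cyp2c55. The first 5 genes held 51.8% and the first 14 held 82.9% of the sum.

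In control epithelial cells, Cyp2c55 had the highest mean at 646.7 TPM and Sult1a1 the next at 468.6 TPM, but the SD of Cyp2c55 was 906 TPM over 4 libraries, against 173.1 TPM for Sult1a1. Their order in epithelial cells is thus not set beyond the spread. After DSS, Cyp2d34 ranked first in the wall of both genotypes, with 435.5 ± 88.7 TPM in control and 371.8 ± 66.9 TPM in transgenic mice. In controls the range of mean ± SD of Cyp2d34 overlapped that of Cyp2c55, at 266.4 ± 97.5 TPM. In transgenic mice it lay above those of Cyp2c55, at 164.6 ± 77.6 TPM, and Sult1b1, at 163.1 ± 28 TPM, whose own order is not set beyond the spread.

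**Figure D1:**
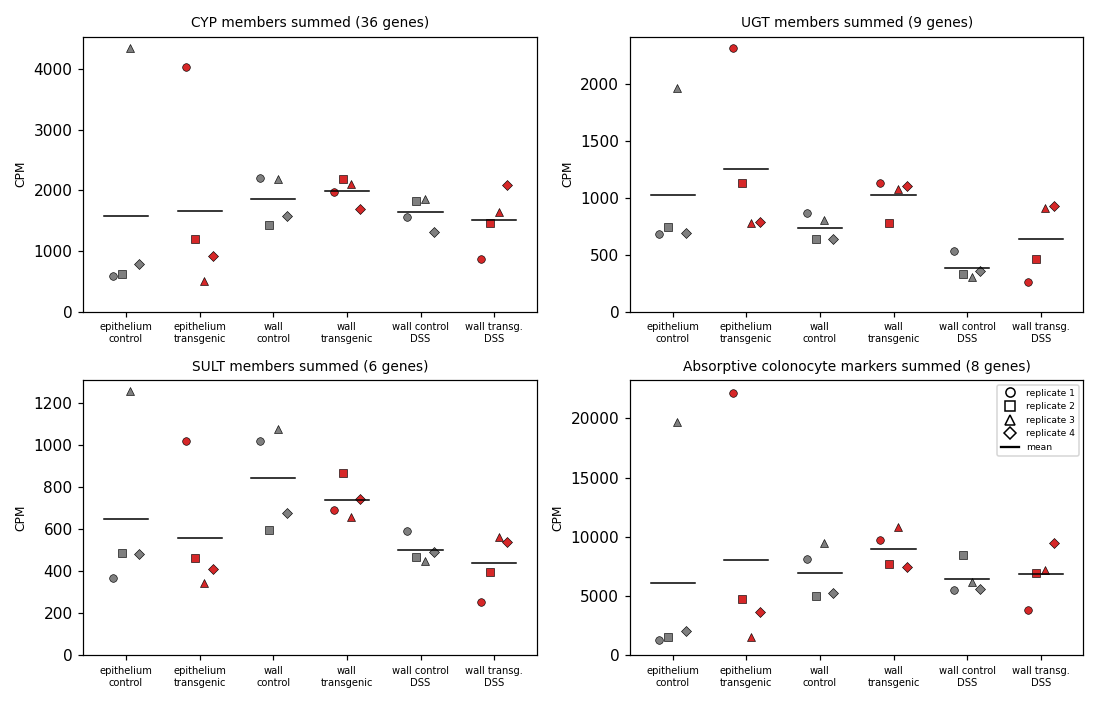
Summed CPM of the 36 CYP, 9 UGT and 6 SULT members and of 8 absorptive colonocyte markers in each of 24 libraries, by group; symbols mark the replicate number and bars the group mean. Epithelial control replicate 3 and epithelial transgenic replicate 1 are the highest library of their group in all 4 panels, and UGT and SULT sums after DSS lie mostly below those of untreated wall.

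The 2 epithelial libraries that stood apart were also the highest of their groups in the sum of each family. CYP members summed to 4342 and 4026 CPM in them, against 513.7 to 1203 CPM in the other 6. UGT members summed to 1963 and 2311 CPM, against 686.2 to 1129 CPM, and SULT members to 1259 and 1019 CPM, against 346.8 to 489.4 CPM. Cyp2c55 showed the widest range. It measured 144.2, 141.2, 2443 and 296.8 CPM in control epithelial cells and 2262, 531.2, 108.4 and 376.6 CPM in transgenic ones. Cyp3a13, an intestinal CYP3A enzyme, measured 21.9, 23.1, 200.4 and 21.9 CPM in controls, with the same library high. The colonocyte marker sum moved with these values, and its part in them was not tested.

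Where the enzymes are expressed was read from control epithelial cells against untreated control wall. Of 51 members tested, 10 were higher and 15 lower in epithelial cells (edgeR quasi-likelihood test, Benjamini-Hochberg adjusted p below 0.05 over all genes). Of all genes tested, 38.6% were called, 18.9% higher and 19.7% lower. By family, 4 CYP genes were higher and 14 lower, 6 of 9 UGT genes were higher and 0 lower, and Sult4a1 was the 1 SULT gene called, lower. Ugt1a2, Ugt2b36 and Ugt2b5 reached 1 CPM only in epithelial cells and so had to be higher there. Cyp2c44, Cyp2f2, Cyp7b1 and Sult4a1 reached it only in wall and so had to be lower in epithelial cells. Of the 43 members that reached it in both tissues, 7 were called higher (4 CYP and 3 UGT genes) and 11 lower (all CYP). These 43 are not free of the choice. Cyp26b1 and Cyp4f18, the second among the 11, reached 1 CPM in transgenic but not in control epithelial cells. Cyp2r1, not called, reached it in control epithelial cells but not in untreated control wall. The median log2 difference was -0.68 over CYP, 3.45 over UGT and -0.40 over SULT members, against 0.04 over all genes. Over members that reached 1 CPM in both tissues it was -0.24, 0.84 and 0.05. DESeq2 called 27 members, against 28.1% of all genes. Tissue, cell isolation and depth changed together here, and the colon stretch may have too, so they cannot be told apart.

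Without epithelial control replicate 3 and transgenic replicate 1, the calls became 8 higher and 21 lower, and the share of all genes called rose to 47.6%. Cyp2d26 and Ugt1a2 were no longer called, at log2 differences of 0.45 and 1.79. Cyp2c69, Cyp2s1, Cyp3a13, Sult1b1, Sult2b1 and Ugt2b34 became called lower, with log2 differences from -0.46 in Ugt2b34 to -2.56 in Sult1b1. The other 8 higher and all 15 lower calls were the same genes as with all libraries.

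Members of the same gene cluster went opposite ways. On chromosome 19, Cyp2c65 and Cyp2c68, of the fatty acid and drug oxidising CYP2C subfamily, are successive members with 594887 bases between them. Cyp2c65 measured 40.5, 59.1, 431.9 and 57.4 CPM in control epithelial cells and 6.51, 4.04, 6.93 and 7.8 CPM in control wall. Cyp2c68 measured 7.56, 3.39, 11.8 and 5.01 CPM in the same epithelial libraries and 229.2, 67.7, 210 and 107 CPM in the same wall libraries. Neither gene's groups overlapped. The log2 difference was 4.72 ± 0.80 (SE) for Cyp2c65 (edgeR adjusted p = 0.00024) and -4.26 ± 0.46 for Cyp2c68 (edgeR adjusted p = 3.31e-06). Without the libraries that stood apart, both calls held. Leaving out single libraries moved the Cyp2c65 value between 3.14, without epithelial control replicate 3, and 5.04. Cyp2c55, 18318 bases before Cyp2c65, was not called.

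The promoter windows of these 2 genes are shown because their expression differed in opposite directions. Windows run from 250 bases before to 50 bases after the RefSeq gene start in GRCm38.p6. Cyp2c65 is at chr19:39060756-39061055 on the plus strand and Cyp2c68 at chr19:39741052-39741351 on the minus strand, both written 5′ to 3′ along the gene. Capitals mark a match, on either strand, to the core of the antioxidant response element bound by Nrf2 (TGACNNNGC) or to the xenobiotic response element bound by Ahr (TNGCGTG). The Cyp2c65 match is to the first and begins at -8 from the start. The Cyp2c68 match is to the second and begins at -130.
Cyp2c65: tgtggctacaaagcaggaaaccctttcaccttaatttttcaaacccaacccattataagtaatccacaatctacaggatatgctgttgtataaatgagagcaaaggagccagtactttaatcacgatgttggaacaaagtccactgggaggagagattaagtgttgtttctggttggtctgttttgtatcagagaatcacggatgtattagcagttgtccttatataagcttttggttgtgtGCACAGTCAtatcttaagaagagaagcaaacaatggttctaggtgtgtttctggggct
Cyp2c68: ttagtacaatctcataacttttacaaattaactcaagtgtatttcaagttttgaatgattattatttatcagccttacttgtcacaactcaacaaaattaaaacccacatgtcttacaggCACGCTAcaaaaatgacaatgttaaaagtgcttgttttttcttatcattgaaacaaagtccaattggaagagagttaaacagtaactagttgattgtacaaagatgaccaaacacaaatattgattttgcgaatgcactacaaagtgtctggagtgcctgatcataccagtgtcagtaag
These motifs occurred in 12.4% and 5.07% of all 32851 windows. Among the 39 members with a window, 5 held the first (Cyp2c65, Cyp2j6, Cyp4f14, Cyp4f18 and Cyp4f39) and 2 held the second (Cyp2c68 and Sult1d1). A match is a run of letters, not a shown binding site.

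**Figure D2:**
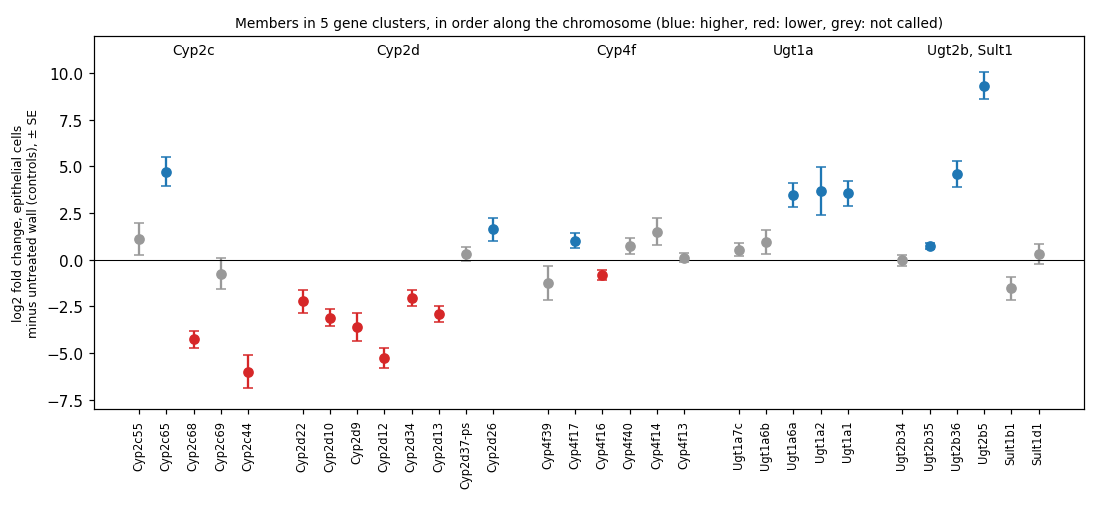
Log2 fold change (± SE) of control epithelial cells over untreated control wall for the members of 5 gene clusters, in their order along the chromosome; blue marks members called higher, red lower and grey not called, each from 4 libraries a group. Cyp2c65 lies at 4.72 and Cyp2c68 at -4.26, 6 of 8 Cyp2d members are called lower, and 6 UGT genes are called higher. Of these UGT genes, Ugt1a2, Ugt2b36 and Ugt2b5 had to be higher by their choice. Of all genes tested, 19.7% were called lower and 18.9% higher.

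In the Cyp2d cluster on chromosome 15, whose enzymes oxidise many basic drugs, Cyp2d9, Cyp2d10, Cyp2d12, Cyp2d13, Cyp2d22 and Cyp2d34 were lower in epithelial cells. Cyp2d12 showed the widest gap, with 1.66, 1.13, 4.89 and 1.98 CPM in epithelial cells and 140.4, 79.4, 145.8 and 75.7 CPM in wall (log2 difference -5.29 ± 0.54). Cyp2d26, the last of the cluster, was the 1 called higher, at 1.62, in 3 of 8 fits that left out 1 library. It was 0.45 and not called without epithelial control replicate 3, where it measured 98.7 CPM against 14.3 to 21.4 CPM in the other controls. The genes of this cluster are close copies, and reads could be split between them, so their separate values are uncertain. Summed over the 8 members, Cyp2d reads were 68.2, 70.5, 269.5 and 77.5 CPM in control epithelial cells and 704.6, 460.1, 723.2 and 490 CPM in control wall, without overlap.

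Of the other P450s, Cyp2f2, Cyp2c44 and Cyp7b1 had few reads in control epithelial cells. As they reached 1 CPM only in wall, this was built into their choice. Cyp2f2, which oxidises naphthalene in lung club cells, measured 0.249, 0.403, 0.888 and 0.527 CPM in epithelial cells and 39.5, 16.1, 29.8 and 30 CPM in wall. Cyp2c44, an arachidonic acid epoxygenase, had a read in 1 of 4 control epithelial libraries, at 0.0807 CPM, and 1.09 to 2.94 CPM in wall. Cyp7b1, which hydroxylates oxysterols on the way to bile acids, also had reads in 1 of 4, at 0.161 CPM, and 0.907 to 2.86 CPM in wall. Cyp27a1, the mitochondrial sterol side-chain hydroxylase, was lower at a log2 difference of -2.01 ± 0.46. Cyp4v3, a fatty acid hydroxylase, was lower at -1.47 ± 0.33. Cyp4f18, which oxidises leukotriene B4 in neutrophils, was lower at -2.60 ± 0.62.

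In the same contrast all 6 smooth muscle, all 6 fibroblast and all 6 neuron and glia markers were called lower in epithelial cells, as were 4 of 6 leukocyte markers and 1 of 6 endothelial markers. The 2 neutrophil markers tested had a median log2 difference of -0.05. Of 8 absorptive colonocyte markers 4 were called lower and 1 higher, with a median of -0.99, and the 6 pan-epithelial markers had a median of -0.38, with 1 called each way. Fibroblast markers summed to 7.4 to 201.2 CPM in control epithelial cells and 978.6 to 1160 CPM in control wall. The part of any of these cells in the tissue differences of the members was not tested. In such bulk libraries, fewer cells of a type and less RNA per cell cannot be told apart.

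All UGT genes called were higher in epithelial cells, 3 of them by their choice, as given above. Ugt2b5, 1 of these 3, measured 15.1, 19.7, 60.7 and 17 CPM there, from 129 to 820 reads a library, and wall controls had 3, 0, 4 and 6 reads. The UGT2B enzymes conjugate steroids and bile acids. The fitted log2 difference of Ugt2b5 was 9.32 ± 0.73 (edgeR adjusted p = 1.48e-07), the smallest adjusted p of the 51 members. Its cluster neighbours Ugt2b36 and Ugt2b35 differed by 4.59 ± 0.68 and 0.71 ± 0.17, and Ugt2b34, at the other end, by -0.02. Ugt1a1, the bilirubin-conjugating enzyme, measured 33.8, 32.4, 219.2 and 45.8 CPM in epithelial cells and 9.66, 7.17, 8.17 and 7.44 CPM in wall, a log2 difference of 3.55 ± 0.66 (edgeR adjusted p = 0.000543). Ugt1a6a, which conjugates planar phenols, differed by 3.45 ± 0.65. Ugt1a7c, the most abundant Ugt1a member in wall, measured 230.5 to 580.2 CPM in epithelial cells and 195.7 to 285.4 CPM in wall, and was not called. Of the other CYP genes, Cyp4b1 was higher at 3.80 ± 0.90 and Cyp4f17 at 1.03 ± 0.38, the second called in 2 of 8 fits that left out 1 library.

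Few members, and few of all genes, were called in the transgene comparisons. In epithelial cells 0 of 46 members tested were called by edgeR, as were 0% of all 12941 genes. DESeq2 also called 0 members, against 0.699% of all genes. At an unadjusted p below 0.05 edgeR gave 2 members, Cyp39a1 and Cyp2d37-ps, against 1344 of all 12941 genes. Their groups were also the 2 of 46 that did not overlap, against 6.96% of all genes tested. Cyp39a1, an oxysterol hydroxylase of bile acid synthesis, measured 24.6, 27.9, 26.3 and 28.7 CPM in controls and 17.9, 18.2, 20.9 and 20.4 CPM in transgenic cells. Its log2 difference was -0.45 ± 0.14 (edgeR adjusted p = 0.322). The pseudogene Cyp2d37-ps, which shares sequence with its neighbours, measured 1.33 to 2.81 against 3.18 to 8.79 CPM. Its log2 difference was 1.29 ± 0.46 (edgeR adjusted p = 0.387).

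Without epithelial control replicate 3 and transgenic replicate 1, edgeR called 1 of 45 members, Ugt1a6b, at a log2 difference of 1.66 (adjusted p = 0.0492), while 6.43% of all genes were called in that fit. With all 8 libraries Ugt1a6b measured 12.5, 40.1, 127 and 24.9 CPM in controls and 225.6, 126.2, 62.4 and 49.5 CPM in transgenic cells. Those groups overlapped only through control replicate 3, and the log2 difference was 1.17 (edgeR adjusted p = 0.657).

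In untreated wall 1 of 49 members was called, Cyp4f39, against 0.224% of all genes, or 36 genes. With 1 library left out, the number of all genes called ran from 5, without control replicate 3, to 320, without control replicate 4. Cyp4f39 is the mouse counterpart of human CYP4F22, which hydroxylates ultra-long-chain fatty acids for the skin barrier. It measured 1.5, 0.272, 1.16 and 0.836 CPM in controls and 25.7, 3.84, 21.5 and 3.47 CPM in transgenic wall. The groups did not overlap, and within the transgenic group replicates 1 and 3 were several times as high as replicates 2 and 4. The log2 difference was 3.82 ± 0.72 (edgeR adjusted p = 0.0376), or 14.1-fold. The call was lost in 5 of 8 fits that left out 1 library (control replicates 1, 2 or 3, or transgenic replicates 1 or 3), with log2 values of 3.34 to 4.14 and adjusted p-values up to 0.158. Since the gene passed the limit of 1 CPM through the transgenic wall groups, a difference of this direction was built into its choice. Its control values rest on 6 to 95 reads a library.

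After DSS, Cyp4f39 measured 0.563, 0.39, 0.0977 and 0.263 CPM in control and 0.965, 1.34, 3.1 and 5.24 CPM in transgenic wall, again without overlap. The log2 difference was 2.91 ± 0.76 and was not called (edgeR adjusted p = 0.537). In that comparison edgeR called 0 of 49 members, against 0.0933% of all genes. DESeq2 called 0 members there, against 0.18% of all genes. With edgeR, 7 members had an unadjusted p below 0.05, against 407 of all 16074 genes. Cyp4f39 and Cyp2e1 were the 2 members whose groups did not overlap after DSS, against 1.51% of all genes. In untreated wall there were 3, Cyp4f39 and Cyp2d37-ps among them, against 6.79%. Averaged over untreated and DSS wall, 2 of 49 members were called, against 0.274% of all genes. They were Cyp4f39, at 3.37 ± 0.52 (edgeR adjusted p = 0.00489), and Ugt1a6a, at 1.37 ± 0.26 (edgeR adjusted p = 0.0325). As in untreated wall, the direction of Cyp4f39 after DSS and in the average was built into its choice.

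The average call of Cyp4f39, a gene chosen through the groups on its high side, held in 16 of 16 fits that left out 1 library. The 4 wall libraries numbered replicate 4 carry another first number in their deposited names than the other 12, and the sources used do not say what that number marks. Without them the average of Cyp4f39 was 3.17 with an edgeR adjusted p of 0.0504, and 0.069% of all genes were called. The value in untreated wall without them was 4.07 (edgeR adjusted p = 0.0194), where 2.53% of all genes were called. In epithelial cells, where villin-driven Cre acts, Cyp4f39 stayed low, at 0.148 to 0.646 CPM in controls and 0 to 1.27 CPM in transgenic cells, from 0 to 18 reads a library. The difference between its transgene effects in epithelial cells and wall was -3.53 ± 1.32 on the log2 scale and was not called (edgeR adjusted p = 0.532). Its choice through transgenic wall built this direction in too. Cyp4f39 was the 1 member of 51 with an unadjusted edgeR p below 0.05 in that test, against 1203 of all 15073 genes. There edgeR and DESeq2 called 0 members, and they called 0% and 0.3% of all genes.

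The windows of Cyp4f39, Ugt1a6a and Ugt1a7c are shown as those of the members that led the transgene comparison in wall, with capitals as above. They are at chr17:32452473-32452772, chr1:88134559-88134858 and chr1:88094751-88095050, all on the plus strand. Cyp4f39 held 1 match to the antioxidant response element core, which begins at 25 after the start. The windows of Ugt1a6a and Ugt1a7c held neither motif, which says only that these letters are not in these 300 bases.
Cyp4f39: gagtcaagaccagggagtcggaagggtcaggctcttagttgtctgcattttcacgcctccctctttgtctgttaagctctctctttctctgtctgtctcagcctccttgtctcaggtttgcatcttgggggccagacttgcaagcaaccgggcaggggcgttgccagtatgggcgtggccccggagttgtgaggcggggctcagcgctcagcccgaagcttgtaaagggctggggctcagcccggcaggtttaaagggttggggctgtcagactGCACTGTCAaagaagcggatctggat
Ugt1a6a: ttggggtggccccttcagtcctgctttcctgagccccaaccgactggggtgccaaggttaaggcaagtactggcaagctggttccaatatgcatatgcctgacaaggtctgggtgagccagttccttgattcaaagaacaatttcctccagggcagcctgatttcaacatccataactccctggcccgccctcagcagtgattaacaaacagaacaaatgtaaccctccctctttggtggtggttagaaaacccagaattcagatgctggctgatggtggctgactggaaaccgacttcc
Ugt1a7c: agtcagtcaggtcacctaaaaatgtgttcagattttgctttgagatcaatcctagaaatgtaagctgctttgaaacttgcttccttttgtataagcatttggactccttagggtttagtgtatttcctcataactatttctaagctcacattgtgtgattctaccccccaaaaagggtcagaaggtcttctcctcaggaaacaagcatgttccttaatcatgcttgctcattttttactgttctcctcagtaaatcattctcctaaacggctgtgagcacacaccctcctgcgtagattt

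The Ugt1a genes use separate promoters and first exons but the same later exons. In the exon coordinates deposited with the counts, 8 of them shared 3 whole exons on chromosome 1, at 88215044 to 88215175, 88215795 to 88215882 and 88216138 to 88216357. Of the transcript bases of the 5 members, 57.2% (Ugt1a6b) to 72.2% (Ugt1a2) lay in sequence that another Ugt1a gene also has, and 890 to 986 bases were each gene's own. Single Ugt1a values therefore rest on how the authors' software divided shared reads.

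Ugt1a6a measured 19.5, 11.6, 18.3 and 10.8 CPM in untreated control wall and 36.4, 15.7, 46.3 and 47.8 CPM in transgenic wall. After DSS it measured 22.2, 16.3, 11.1 and 16.9 CPM in controls and 18, 46.1, 70.4 and 49.4 CPM in transgenic wall. In each pair of groups 1 transgenic library, replicate 2 untreated and replicate 1 after DSS, lay within the control range. The average call was lost in 13 of 16 fits that left out 1 library, with log2 values of 1.24 to 1.51, and without the replicates 4, at 1.22 (adjusted p = 0.249).

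Ugt1a7c measured 282.5, 249.5, 285.4 and 195.7 CPM in untreated controls against 439.2, 266.9, 437.7 and 494.7 CPM in transgenic wall. After DSS the values were 189.6, 117.4, 84 and 116.9 against 106.4, 179.3, 447.3 and 398.5 CPM. Transgenic replicate 2 lay within the control range in untreated wall, and replicates 1 and 2 after DSS. Its average log2 difference of 0.92 ± 0.25 was not called (edgeR adjusted p = 0.27), and was called without transgenic DSS replicate 1. The sum over the 5 Ugt1a members was 357.4, 306.8, 338.5 and 225.2 CPM in untreated controls and 588.1, 328.2, 539.9 and 580.9 CPM in transgenic wall, with replicate 2 again inside the control range. In the wall average, 6 of 7 UGT members tested had a value above 0, against 44.5% of all genes, with a median of 0.78. The 7 include the 5 Ugt1a members, which share exons and so are not separate values. Ugt1a6a was the 1 called. The median of the wall average was -0.03 over CYP and -0.04 over SULT members, and -0.02 over all genes.

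**Figure D3:**
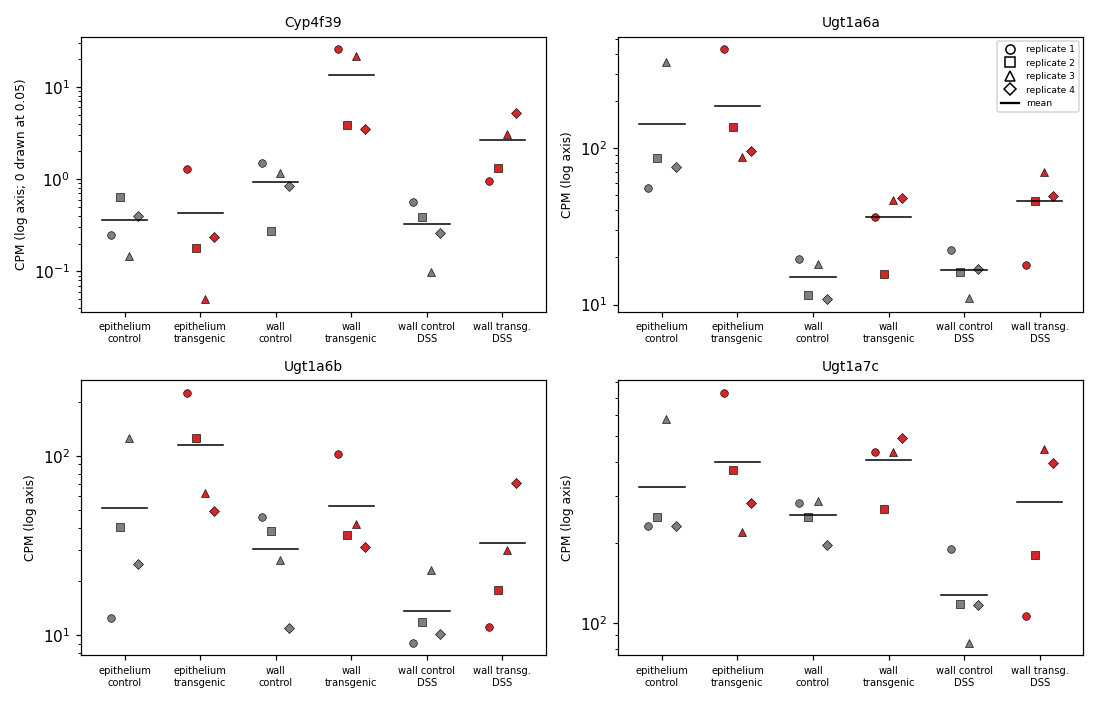
CPM (log axis) of Cyp4f39, Ugt1a6a, Ugt1a6b and Ugt1a7c in each of 24 libraries; grey marks control and red transgenic mice, symbols the replicate number and bars the group mean. Cyp4f39 is higher in every transgenic wall library than in any control library of the same treatment, while for the Ugt1a genes at least 1 transgenic wall library lies within the control range.

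Cyp2e1, the ethanol-inducible P450, measured 1.28, 0.895, 4.79 and 4.6 CPM in DSS-treated control wall and 10.6, 20.1, 37.1 and 32 CPM in DSS-treated transgenic wall. The groups did not overlap, but the log2 difference of 3.07 ± 0.98 was not called (edgeR adjusted p = 1). Untreated control replicate 2 and transgenic replicate 1 were also high, at 15.8 and 15.9 CPM, where the other 6 untreated wall libraries had 0.745 to 3.06 CPM. The summed level of 5 adipocyte markers moved with it, at 199.1 and 87 CPM in those 2 libraries and 22.7 to 32.2 CPM in the other 6. After DSS that sum was 38.7 to 99.8 CPM in control and 82.2 to 148.3 CPM in transgenic wall. In epithelial cells it was 2.82 to 19 CPM, with Adipoq and Plin1 at 0. The part of adipocytes in the Cyp2e1 values was not tested.

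More members, and more of all genes, were called with DSS than with the transgene. In control wall 5 of 49 were higher and 9 lower, or 14 in all (28.6%). This was a smaller share than of all genes, of which 39.2% were called, 23.1% higher and 16.1% lower. In transgenic wall 5 were higher and 18 lower, or 23 in all (46.9%). Of all genes 41.2% were called there, 23.1% higher and 18.1% lower. Cyp2c69 and Cyp2w1, among these 18, reached 1 CPM only in groups not given DSS. A decrease was thus built into their choice, and both are also in the medians that follow. The median log2 change of the members was -0.12 in control and -0.53 in transgenic wall, against 0.06 and 0.01 over all genes. Cyp26b1, Cyp2j9 and Cyp7b1 rose in both genotypes. Cyp2d26, Cyp39a1, Cyp4f16, Sult1a1, Sult2b1, Ugt1a1, Ugt2b34 and Ugt2b35 fell in both. Without the replicates 4, the calls in transgenic wall were 1 higher (Cyp7b1) and 22 lower, while 43.6% of all genes were called, 3548 higher of 6949. Cyp26b1, Cyp2j9, Cyp4b1 and Sult4a1 then kept positive log2 values of 0.54 to 1.73 but were no longer called. Without control DSS replicate 3 the calls in control wall dropped to 9, and the share of all genes called to 33.2%.

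Among the conjugating enzymes, all calls in control wall and all but Sult4a1 in transgenic wall were decreases. Sult1a1 measured 439.9, 323.2, 441.7 and 307 CPM in untreated control wall and 163.4, 40.9, 55.2 and 42.3 CPM after DSS. In transgenic wall it went from 317.9, 395.7, 211.7 and 243.6 CPM to 19.9, 49.8, 76.4 and 76.7 CPM. No DSS library reached an untreated one. The log2 change was -2.25 ± 0.43 in control (edgeR adjusted p = 0.00114) and -2.37 ± 0.44 in transgenic wall (edgeR adjusted p = 0.000747). Sult2b1, which sulfonates cholesterol and other hydroxysteroids, fell by 1.12 and 1.24 on the log2 scale. Sult1b1, the thyroid hormone sulfotransferase, was not called in either genotype, at 266.4, 120.2, 307.4 and 181.1 CPM before and 227.1, 269.2, 228.3 and 272.6 CPM after DSS in controls.

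Ugt2b35 fell the most of the UGT genes in control wall. It measured 25.5, 31.4, 25.1 and 31 CPM untreated and 8.45, 1.31, 1.66 and 1.69 CPM after DSS, with control DSS replicate 1 well above the other 3. In transgenic wall it went from 42.6, 27.7, 30.5 and 36.9 CPM to 1.31, 4.12, 8.21 and 18.4 CPM. The log2 change was -3.04 ± 0.65 (edgeR adjusted p = 0.00207) and -2.10 ± 0.62 (edgeR adjusted p = 0.013). Ugt1a1 fell by 1.12 ± 0.32 and 1.81 ± 0.33, and Ugt2b34 by 0.82 ± 0.27 and 0.84 ± 0.27. Ugt1a7c was called in control wall, at -0.91 ± 0.35 (edgeR adjusted p = 0.0486), in 2 of 8 fits that left out 1 library. In transgenic wall its value was -0.53.

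**Figure D4:**
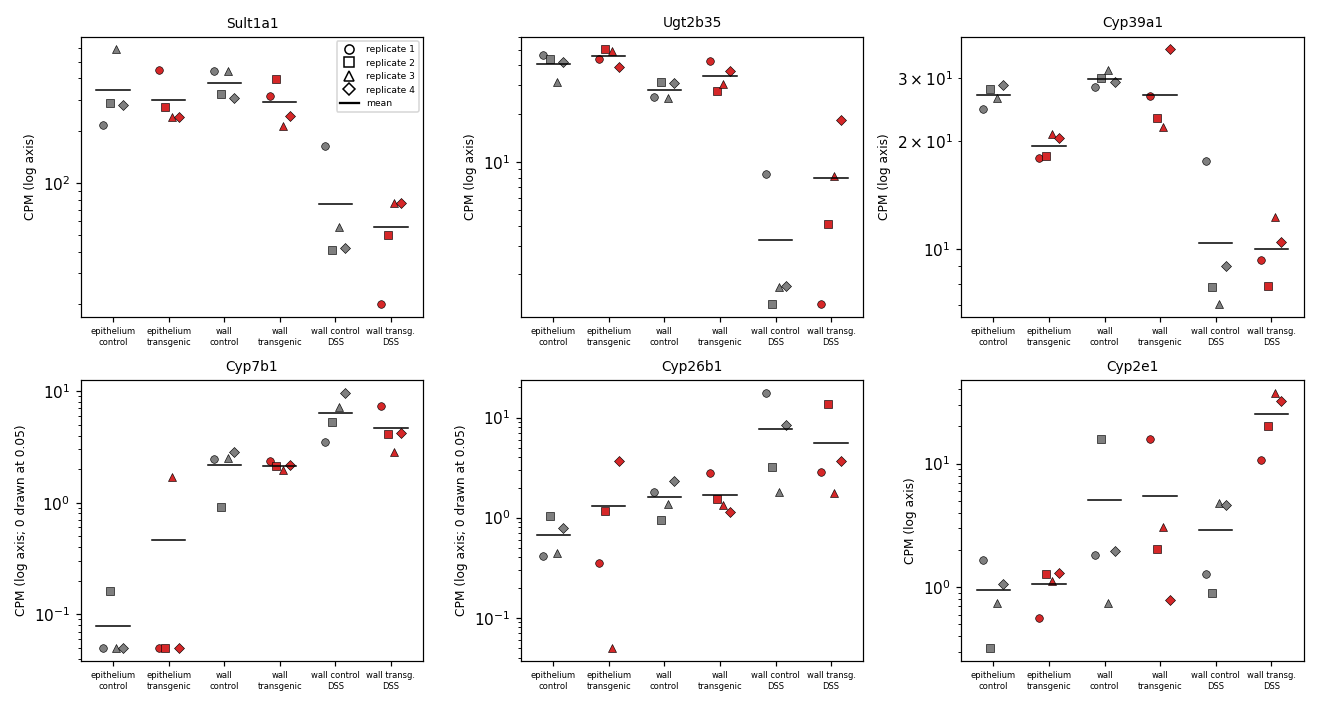
CPM (log axis) of 6 members in each of 24 libraries; grey marks control and red transgenic mice, symbols the replicate number and bars the group mean. Sult1a1, Ugt2b35 and Cyp39a1 are lower in every DSS library than in any untreated wall library of the same genotype, Cyp7b1 is higher in every one, Cyp26b1 overlaps, and Cyp2e1 is high in the DSS-treated transgenic wall and in 2 untreated libraries.

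The sterol hydroxylases went opposite ways. Cyp39a1 measured 28.2, 30, 31.5 and 29.1 CPM in untreated control wall and 17.6, 7.85, 7.03 and 9 CPM after DSS. It fell by 1.44 ± 0.24 in control and 1.41 ± 0.24 in transgenic wall (edgeR adjusted p = 0.000529 and 0.000501), the smallest adjusted p of any member in both. Cyp7b1, which acts on other oxysterols, measured 2.45, 0.907, 2.54 and 2.86 CPM untreated and 3.5, 5.25, 7.18 and 9.59 CPM after DSS in controls. It rose by 1.61 ± 0.37 in control (edgeR adjusted p = 0.00335) and 1.15 ± 0.37 in transgenic wall (edgeR adjusted p = 0.0209), without overlap in either. Cyp27a1 was not called in either genotype.

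Cyp26b1, which breaks down retinoic acid, measured 1.79, 0.952, 1.35 and 2.31 CPM in untreated control wall and 17.6, 3.21, 1.81 and 8.38 CPM after DSS. Its groups overlapped in both genotypes. It rose by 2.31 ± 0.67 in control (edgeR adjusted p = 0.0124) and 1.76 ± 0.67 in transgenic wall (edgeR adjusted p = 0.0435). The control call was lost without DSS replicate 1, at 1.56. The transgenic call was lost in 4 of 8 fits that left out 1 library, with the lowest value, 0.76, without DSS replicate 2. Of 13 genes tested that make, bind or sense retinoic acid, 6 were higher and 1 lower in control wall and 8 higher in transgenic wall. Of all genes, 23.1% were called higher in each genotype. Aldh1a3, which makes retinoic acid, rose by 3.16 and 3.23, the receptor Rarb by 1.74 and 1.64, and Dhrs3, which returns retinal to retinol, by 1.55 and 0.97. Rbp2, a cellular retinol carrier of enterocytes, fell in control wall by 1.07.

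Among the drug and fatty acid oxidising P450s, Cyp2d26 fell by 1.66 ± 0.37 and 2.17 ± 0.38, and Cyp4f16 by 0.54 ± 0.20 and 0.79 ± 0.20, the Cyp4f16 call in control wall in 2 of 8 fits that left out 1 library. Cyp2j9, an arachidonic acid oxidising enzyme, rose by 0.80 ± 0.23 and 0.63 ± 0.23. Cyp2w1, known from fetal colon and colon tumours, measured 1.28, 0.951, 2.12 and 3.28 CPM in untreated transgenic wall and 0.115, 0, 0.0509 and 0.0406 CPM after DSS (log2 change -5.00 ± 1.11, edgeR adjusted p = 0.00255). In control wall it went from 1.35, 0.998, 1.1 and 2.56 CPM to 1.31, 0.0229, 0 and 0.0219 CPM. There DSS replicate 1 lay within the untreated range, and the change of -2.13 ± 0.88 was not called (edgeR adjusted p = 0.066). As Cyp2w1 passed the 1 CPM limit through untreated groups, a lower value after DSS was built into its choice. Control DSS replicate 1 was also the highest of its group for Sult1a1, Sult1c2, Ugt2b35 and Cyp39a1.

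Besides Cyp2w1, the members called lower in transgenic wall but not in control wall were Cyp2c65, Cyp2c69, Cyp2d13, Cyp2s1, Cyp3a13, Cyp4f39, Cyp4v3, Sult1c2 and Ugt1a2. For Cyp2c69, as for Cyp2w1, a lower value after DSS was built into its choice. Cyp2s1, an Ahr target of epithelia, fell by 1.17 ± 0.28 in transgenic wall and had a value of -0.69 ± 0.28 in control wall. Cyp4f39 fell by 2.34 ± 0.67 in transgenic wall and had -1.43 in control wall. Cyp4b1 and Sult4a1, a sulfotransferase known from brain, were called higher in transgenic and not in control wall. Cyp2d34 and Cyp2d37-ps were called higher in control and not in transgenic wall. The difference of the DSS change between genotypes was itself tested, and edgeR called 0 of 49 members, as it did 0% of all genes. DESeq2 called 0 members, against 0.146% of all genes. Without the replicates 4, edgeR called 0.615% of all genes and again 0 members. At an unadjusted edgeR p below 0.05 there were 5 with all libraries, against 1279 of all 16074 genes. They were Cyp2c65, Cyp2d13, Cyp2d37-ps, Cyp2e1 and Ugt1a2. The smallest p was that of Cyp2d37-ps, at -1.5 ± 0.42 (edgeR adjusted p = 0.435) with 0.96 in control and -0.55 in transgenic wall.

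**Figure D5:**
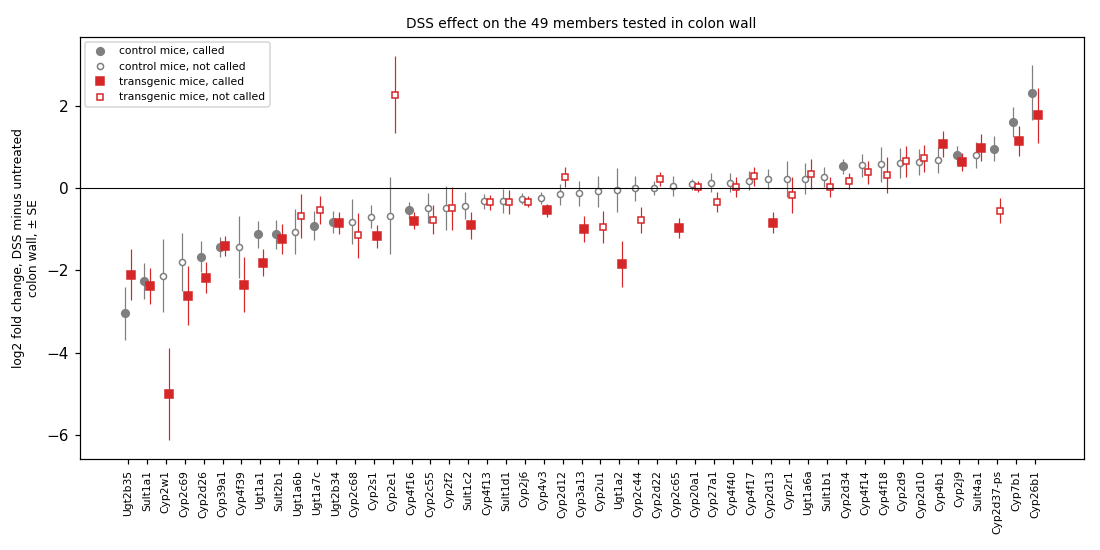
Log2 fold change (± SE) of DSS-treated over untreated wall for the 49 members tested, ordered by the value in control mice; grey circles are control and red squares transgenic mice, filled where called, with 4 libraries a group. Ugt2b35 and Sult1a1 stand at the low end and Cyp7b1 and Cyp26b1 at the high end in control mice, and Cyp2w1 has the lowest value in transgenic mice.

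Partner genes were taken from lists. With DSS, 39.2% of all genes were called in control and 41.2% in transgenic wall. The 9, 14 and 20 genes tested below each had smaller shares called. Of 9 electron transfer partners and epoxide hydrolases tested, Fdx1 and Fdxr, which carry electrons to mitochondrial P450s, fell in both genotypes, by 0.70 and 0.75 in control and 0.68 and 0.71 in transgenic wall. Of 14 genes for donor supply and deconjugation, 4 fell in control wall, among them the PAPS synthase Papss1 by 0.86 and the PAPS transporter Slc35b2 by 0.60. In transgenic wall 3 fell and Arsb rose by 0.44. Of 20 sensing transcription factors, Nr1h4 (the bile acid receptor FXR) rose by 0.77 and 0.39, Rxrg rose by 0.997 and 0.976 and Pparg fell by 1.17 and 1.24. Nr1i3, Rxrb and Vdr were called lower in transgenic and not in control wall. In the transgene comparisons the 1 gene of these lists called by edgeR was Aldh1a1, a retinal-oxidising enzyme. It was called at 1.41 in the wall average (edgeR adjusted p = 0.0428), where 0.274% of all genes were called.

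Cell type markers moved with DSS too. In control wall all 6 fibroblast, all 6 endothelial and all 4 neutrophil markers rose, and 2 of 6 pan-epithelial markers fell. There 5 of 6 neuron and glia and 4 of 6 leukocyte markers also rose. In transgenic wall all 6 fibroblast, all 6 endothelial and 3 of 4 neutrophil markers rose. So did all 6 neuron and glia and 3 of 6 leukocyte markers. Of 6 smooth muscle markers, 0 rose in control and 1 in transgenic wall. Of all genes, 23.1% were called higher in each genotype, and 16.1% and 18.1% lower. The 6 pan-epithelial markers had a median log2 change of -0.39 in control and -0.16 in transgenic wall. Fibroblast markers summed to 978.6 to 1160 CPM in untreated and 2017 to 3753 CPM in DSS-treated control wall. The pan-epithelial sum was 10700 to 19060 and 8791 to 11610 CPM, and the absorptive colonocyte sum 5030 to 9451 and 5488 to 8436 CPM. In transgenic wall 2 of 8 absorptive colonocyte markers were called lower and 1 higher. The part of the shift in cell types in the changes of the members was not tested.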

How the data were processed

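RNA sequencing of mouse colon gave 24 libraries in 6 groups of 4, grouped by the submitters' sample titles. The series text speaks of triplicates, where the labels hold 4 libraries a group. The authors deposited 1 table a library with RSEM expected counts and TPM for 30383 transcripts, per the file headers. RSEM 1.2.11, FastQC and the build mm10 are named in the submitters' processing notes, and no annotation is named there. Of the expected counts, 39.2% were not whole numbers.

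Expected counts were summed per gene symbol and rounded for tests, and the 1 CPM limit used CPM from the library totals. CPM of single libraries were scaled by TMM factors over the 24 libraries. No pair of libraries within a group agreed within sampling noise (the lowest chi-square per gene over 36 pairs was 10.5). edgeR 4.0.16 quasi-likelihood tests (R 4.3.3, limma 3.58.1) used TMM scaling, filterByExpr and group means, with Benjamini-Hochberg adjustment over all genes tested and a threshold of 0.05. The epithelial libraries (12941 genes tested), the wall libraries (16074) and, for tissue comparisons, epithelial with untreated wall libraries (15073) were fitted separately. The tests were tried on simulated counts with known changes. Alternatives were DESeq2 1.42.0, RLE size factors, no filter, the deposited posterior count estimate, the replicate number as a block, and libraries left out.

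Members and lists were chosen with earlier results of these data known. Members were named by the smallest p-values among those called (up to 10 a comparison), the 8 smallest p-values in each transgene comparison, the 10 highest TPM levels in control epithelial cells and in untreated control wall, all Ugt1a members and the 3 genes on each side of the limit. Others may be named with a level or fold. Promoter windows came from RefSeq (GRCm38.p6), matched by symbol for 39 of 51 members.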

Additional observations from a re-analysis of the deposited data

Results flagged for a closer look

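In each member and group, the highest and the lowest library were set against the other 3 by Dixon's test at the 95% level. Of 306 groups of 4 libraries, 56 held a library far from the others, where chance gives about 1 in 20. Values are CPM.

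Epithelial control replicate 3 was far above the other controls in 23 members. The CYP genes were Cyp2c55 at 2443, Cyp2c65 at 431.9, Cyp2c69 at 4.29, Cyp2d22 at 20.4, Cyp2d26 at 98.7, Cyp2d34 at 117.3, Cyp2j6 at 110.5, Cyp2s1 at 263.9, Cyp3a13 at 200.4, Cyp4b1 at 62.3, Cyp4f14 at 257.4, Cyp4f16 at 56.6, Cyp4f40 at 74 and Cyp4v3 at 11.4. The sulfotransferases were Sult1b1 at 161.8, Sult1d1 at 389.7 and Sult2b1 at 49.9, and the UGT genes were Ugt1a1 at 219.2, Ugt1a2 at 8.07, Ugt1a6a at 355.6, Ugt1a7c at 580.2, Ugt2b34 at 576.3 and Ugt2b5 at 60.7. Its nearest neighbour had 296.8 for Cyp2c55 and 6.38 for Cyp4b1.

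Epithelial transgenic replicate 1 was far above the others in 12 members. The CYP genes were Cyp2c44 at 0.141, Cyp2d9 at 9.27, Cyp2f2 at 0.991, Cyp2s1 at 266.0, Cyp3a13 at 177.8, Cyp4f13 at 72.7, Cyp4f16 at 67.7 and Cyp4f40 at 77.5, and the conjugating enzymes were Sult1a1 at 444.5 and Sult2b1 at 53.4 and Ugt1a6a at 429.6 and Ugt2b5 at 64.8. These 2 libraries are the ones with the high colonocyte marker sums.

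Elsewhere in epithelial cells, Cyp2j9 at 4.82 in control replicate 1 stood high. Cyp2c44 at 0.0807 and Cyp7b1 at 0.161 in control replicate 2 and Cyp7b1 at 1.69 in transgenic replicate 3 stood against 0 in the other 3 libraries.

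In untreated wall, control replicate 2 was high for Cyp2e1 at 15.8 and low for Ugt2b5 at 0, and control replicate 1 was low for Ugt1a2 at 0.0915. Transgenic replicate 1 was high for Cyp2e1 at 15.9, Ugt1a6b at 102.6 and Ugt2b36 at 0.378.

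After DSS, control replicate 1 was high for Cyp2w1 at 1.31, Sult1a1 at 163.4, Sult1c2 at 46.7 and Ugt2b35 at 8.45, and control replicate 3 for Cyp27a1 at 71.6 and Cyp2u1 at 2.15. Transgenic replicate 1 was low for Cyp2d34 at 202.6 and high for Ugt2b36 at 0.023 and Ugt2b5 at 0.046, both from few reads. Transgenic replicate 2 was high for Cyp26b1 at 13.8, and replicate 3 low for Cyp2j9 at 4.45.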

How the results depend on the processing

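Each count of members called was recomputed under the alternatives. In epithelial cells the transgene count of 0 became 1 without control replicate 3 and transgenic replicate 1, and was 0 under the others. In untreated wall the count of 1 became 2 with DESeq2, which called 0.999% of all genes, and ran from 0 to 1 with 1 library left out. The wall average of 2 became 0 without the replicates 4 and ran from 1 to 3 with 1 library left out. The DSS count in control wall, 14, ran from 9 (without DSS replicate 3) to 16 (without DSS replicate 1). The DSS count in transgenic wall, 23, ran from 17 to 26, and the tissue count, 25, from 21 to 27, with 1 library left out. The tissue count was 29 without both epithelial libraries that stood apart. The transgene effect after DSS and both tests of a difference gave 0 under every alternative run. The transgene effect on Cyp2w1 after DSS, -2.52 on the log2 scale and not called, ran from -3.33 to 1.504 with 1 library left out, the last without control DSS replicate 1. These causes were not tested. Of the values of named members with 1 library left out, 724 kept their direction and side of the threshold, 90 were no longer called, 1 became called and 1 changed sign. RLE size factors in place of TMM moved the median of all genes by at most 0.09 in size.

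With the replicate number as a block, the transgene count was 0 in untreated wall, against 0.0435% of all genes. It was 1 in the wall average, against 0.18%. The DSS counts were 12 in control and 21 in transgenic wall, against 34.5% and 37.5% of all genes. The tissue count was 22, against 36.1%. Same-numbered libraries of different groups had correlations of -0.65 to 0.38 in their deviations from the group means, so the data do not show that the numbers pair libraries, although the wall libraries numbered 4 share a first number in their names. Epithelial libraries had the lowest totals and also a larger common biological coefficient of variation than wall, 0.364 against 0.261, and which of these limited the calls was not tested.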
